A study of Saccharomyces cerevisiae with 10 samples.

Results

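Chromosome IV was described through the single nucleotide polymorphisms (SNPs) assayed on it in 10 diploid isolates of the yeast Saccharomyces cerevisiae. Its members were all SNPs whose probe names place them on this chromosome and that carry at least 1 probe for each allele, which gave 1568 SNPs of 13461 on the array and 6215 of 53664 probes. The chromosome was chosen by its LOH calls (loss of heterozygosity, the measure d below) in earlier results of these same arrays, so its homozygous stretches are described here with no test. Another 19 positions held probes for 1 allele alone and were not used. The left arm held 635 SNPs and the right arm 933, divided at the S288C centromere position, which falls between the SNPs at 449635 and 449808.

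The HK isolates were 2 isolates of HK10 (A and B) and 2 of HK12 (A and B). They were set against 6 zygotes of 2 crosses, 4 from MD893-1 crossed with LSY3454-2 and 2 from MD893-2 crossed with the same second strain. The labels give all 10 as diploids with the background W303-1A × YJM789, grown at 30 °C. They do not give the genotypes of HK10, HK12 or the crossed strains, so the groups are called by their names. The labels call the zygotes independent, while A and B of an HK name may descend from 1 culture. Each array compared the Cy5-labelled genomic DNA of 1 isolate with Cy3-labelled DNA of a control diploid, JSC24. The study concerns RNase H2, the nuclease that opens DNA strands at embedded ribonucleotides.

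A diploid made from diverged parents is heterozygous at every SNP where the parents differ. A crossover between homologues, or break-induced replication, in which a broken end copies its homologue to the chromosome end, can leave every SNP from the exchange to the telomere with 1 parental allele. Gene conversion copies a short stretch from 1 homologue into the other and leaves a short homozygous tract with heterozygous SNPs on both sides. Both are called loss of heterozygosity (LOH), and the SNP array reads them as a gain of signal for the retained allele and a drop for the other. Chromosome IV is the longest yeast chromosome apart from the one that carries the ribosomal DNA repeats.

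The labels do not say which parent the probe letters S and Y stand for, so the alleles keep those letters here. The genome build of the probe positions is not given in the sources used here. Positions are therefore printed as deposited, and no gene or sequence was placed on them. The SNPs ran from position 3578 to 1515286, a span of 1511.7 kb, with a median spacing of 322.5 bp on the left arm and 494 bp on the right. The widest stretch without a SNP, 67.1 kb, lay between 1075942 and 1143034 on the right arm. Between 1467 and 1508 of the SNPs had both alleles measured in an HK isolate, and between 1441 and 1564 in a zygote. In all 10 isolates 1360 were measured, and in none 4.

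The measure d of a SNP is its average log2 ratio on S probes less its average on Y probes, so that a heterozygous SNP lies near 0. A stretch homozygous for S has positive d and one homozygous for Y has negative d. Stretches were called by a hidden Markov model with homozygous levels of 3 and -3 and a minimum of 5 SNPs per tract. A value of 1.5 in either direction, midway to that level, divided SNPs nearer to heterozygous from SNPs nearer to homozygous.

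All 4 HK isolates held 1 S tract on the right arm that ran to the last SNP of the chromosome, and no zygote held a called tract anywhere on it, beside 0.108% of their SNPs in a called tract over all chromosomes. The tracts differed in length. The S tract of HK10 A covered 789.4 kb and 596 measured SNPs. That of HK10 B covered 75.5 kb and 111 measured SNPs. In HK12 A and HK12 B it covered 1058.0 kb, with 856 and 854 measured SNPs. No HK isolate held a terminal tract on the left arm.

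**Figure D1:**
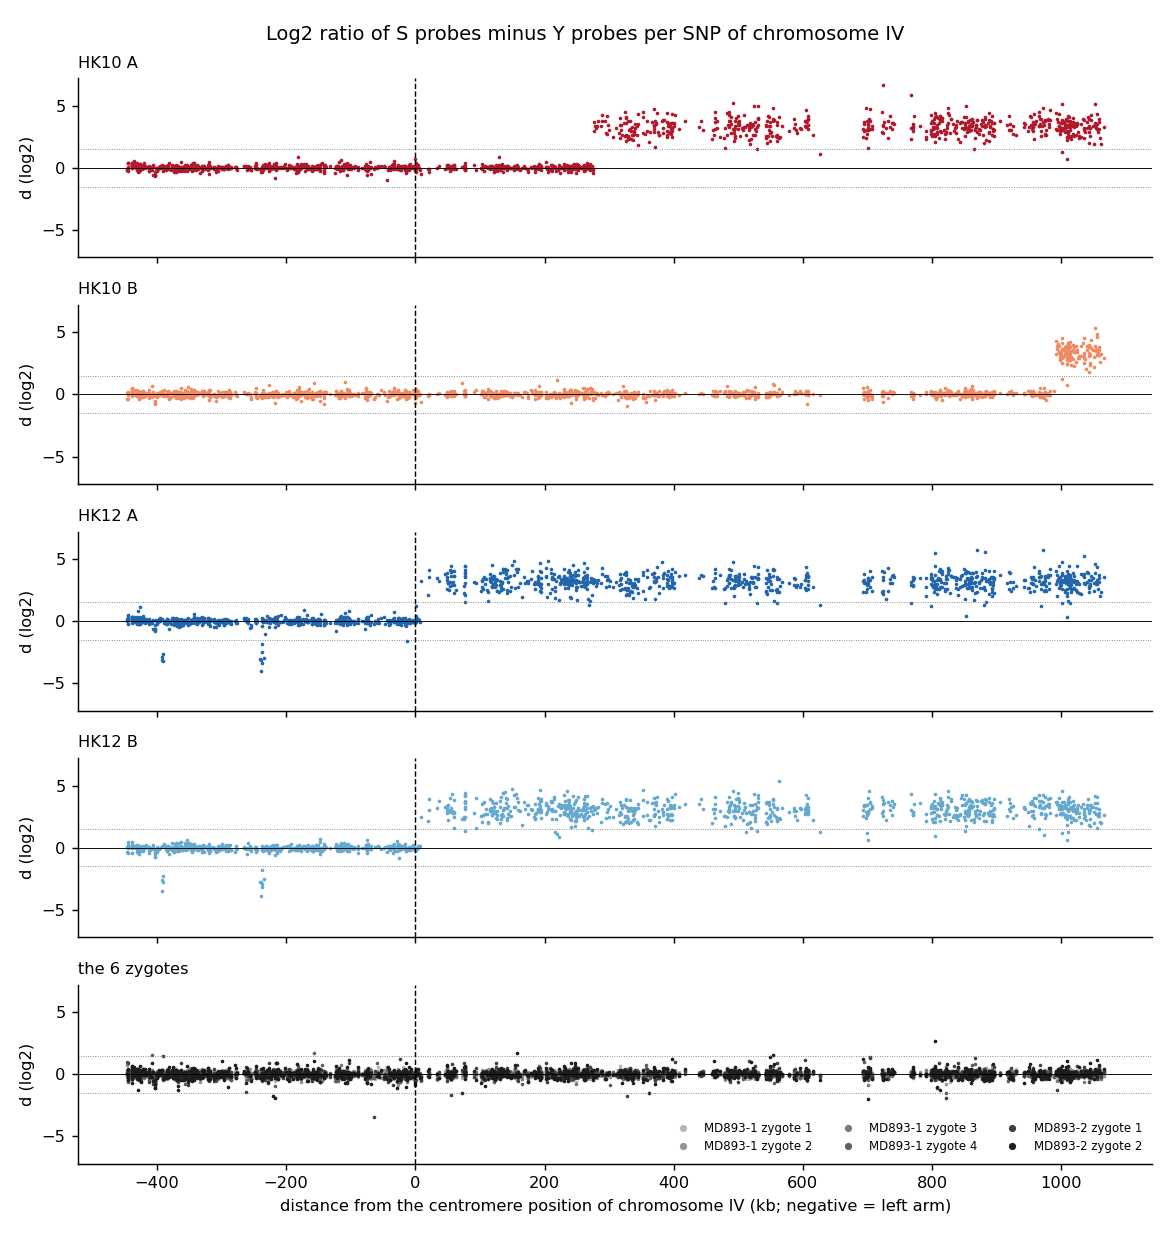
Each point is 1 SNP, with d on the vertical axis (log2) and the distance from the centromere position on the horizontal axis (kb, negative on the left arm). The dashed line marks the centromere position and the dotted lines mark d of 1.5 and -1.5; each HK isolate has its own panel and the 6 zygotes share 1. The S tracts of HK12 A and HK12 B fill nearly the whole right arm. That of HK10 A starts 276 kb from the centromere position and that of HK10 B covers the last 75.5 kb. The zygotes lie near 0 apart from scattered single SNPs.

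Of the assayed length of chromosome IV, LOH took up 52.2% in HK10 A, 4.99% in HK10 B, 70.4% in both HK12 isolates and 0% in each of the 6 zygotes. Of the right arm alone it took up 74.1% in HK10 A, 7.08% in HK10 B and 99.3% in each HK12 isolate. Counted in SNPs, 40.0% of the chromosome IV SNPs measured in HK10 A lay in a called S tract, beside 5.42% of SNPs over all chromosomes of that isolate. In HK10 B the share on chromosome IV was 7.36%, beside 1.61% over all chromosomes. It was 58.4% in HK12 A, beside 7.00%, and 58.2% in HK12 B, beside 12.0%. These shares include chromosome IV in the value over all chromosomes, and since the chromosome was chosen for its LOH nothing is read from the gap between them.

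The isolates differed in what the rest of the genome held. In HK12 A the other chromosomes were in LOH over 0.638% of their assayed length, and chromosome IV held 94.3% of all its LOH by length. In HK12 B the other chromosomes stood at 4.71% and chromosome IV held 69.2%. In HK10 A and HK10 B the other chromosomes stood at 11.6% each, and chromosome IV held 40.3% and 6.06% of the LOH. The zygotes had between 0.0597% and 0.105% of the other chromosomes in LOH.

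The 2 HK12 isolates shared the same first SNP of the S tract. The last heterozygous SNP was at 456380 and the first S SNP at 458195, an interval of 1815 bp that lies 6.68 to 8.50 kb from the centromere position. On the proximal side, d at 454186, 455000 and 456380 was 0.17, 0.091 and -0.089 in HK12 A and -0.035, 0.12 and 0.13 in HK12 B. On the distal side, d at 458195, 469765 and 470421 was 3.20, 2.07 and 4.14 in HK12 A and 2.50, 2.17 and 3.94 in HK12 B. At those same 3 distal SNPs the HK10 isolates had d between -0.57 and -0.069, so they were heterozygous where HK12 was not. Between the centromere position and the tract, HK12 A had 13 measured SNPs and HK12 B 12, and none of them reached 1.5.

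The position of the HK12 end rests on 1 SNP. After 458195 the next SNP of the map is at 469765, 11.57 kb farther on, and without the first of these the end would lie somewhere in 13.4 kb. At 458195 the reverse Y probe had no value in any HK isolate. The forward Y probe read a ratio of 0.154 in HK12 A and 0.251 in HK12 B, against 1.26 in HK10 A and 1.56 in HK10 B, which were heterozygous there.

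HK10 A and HK10 B ended at different places, 715.2 kb apart between SNPs. In HK10 A the last heterozygous SNP was at 725453 and the first S SNP at 726278, an interval of 825 bp, 276 kb from the centromere position. Its d at 724061, 724557 and 725453 was -0.21, -0.073 and -0.39, and at 726278, 726748 and 727671 it was 3.73, 3.01 and 3.34. Both probes of each allele were measured at the SNPs on either side of this end. At 725453 the Y probes of HK10 A read ratios of 1.46 and 1.10, and at 726278 they read 0.0981 and 0.121, so the change from heterozygous to homozygous was complete from 1 SNP to the next.

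In HK10 B the last heterozygous SNP was at 1438183 and the first S SNP at 1441463, an interval of 3280 bp, 990 kb from the centromere position. Its d at 1431782, 1432817 and 1438183 was -0.050, 0.28 and 0.27, and at 1441463, 1442062 and 1442787 it was 4.29, 3.22 and 3.90. At 1438183 the 2 strands disagreed: the S probes read ratios of 1.39 and 0.682 and the Y probes 0.739 and 0.901. On forward-strand probes alone this SNP was called S. Without its heterozygous call the end would lie somewhere between 1432817 and 1441463. Neither Y probe at this SNP had a value in the other 3 HK isolates, which were homozygous on both sides of it. The stretch of 711.9 kb between 726278 and 1438183 was homozygous in HK10 A, with a median d of 3.34. In HK10 B it was called heterozygous, with a median d of 0.050.

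**Figure D2:**
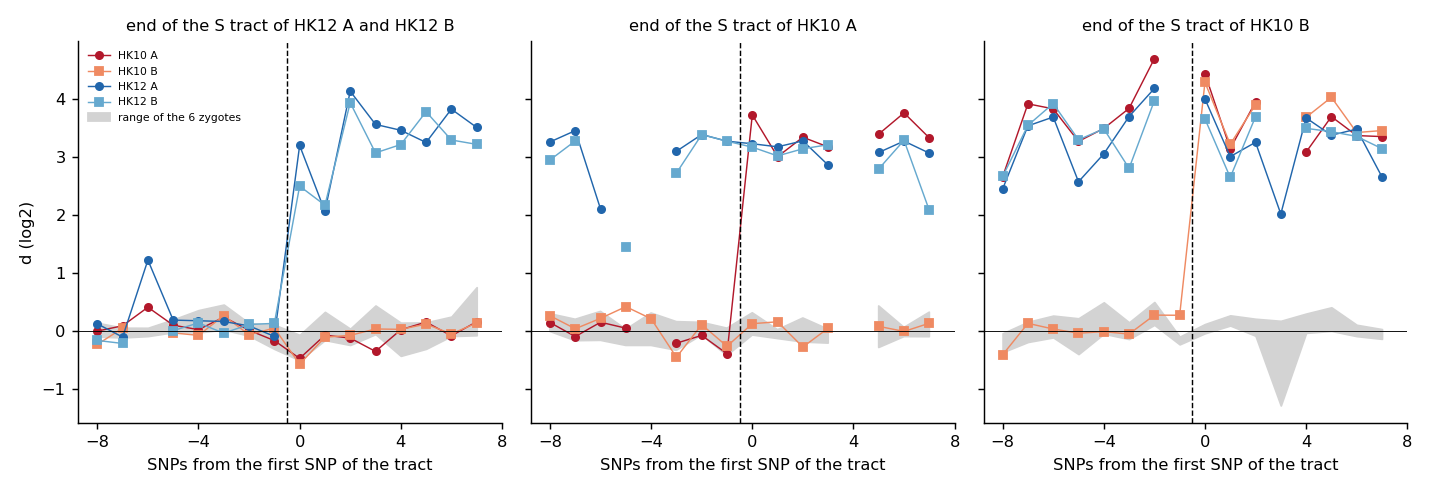
The horizontal axis counts SNPs of the map from the first SNP of each S tract (0), the vertical axis is d (log2), and the dashed line marks the called end. Lines join SNPs measured next to each other in 1 HK isolate, a gap is a SNP without a value, and the grey band is the range of the 6 zygotes. At each end d of the isolate named in the title passes from near 0 to above 2 between adjacent measured SNPs, while the zygotes keep no such step.

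Inside the tracts the retained S allele stood above the heterozygous level and the lost Y allele well below it. Levels here are medians of an allele's log2 ratio over the tract's SNPs with both alleles measured. The median of the same isolate's heterozygous SNPs on chromosome IV is subtracted. SNPs whose Y probes gave no value are thus left out, and lost alleles more often had no value, as given below. The S allele stood at 0.68 in HK10 A and 0.64 in HK10 B, with 0.69 in HK12 A and 0.64 in HK12 B, which is 1.56 to 1.61 times the heterozygous signal. The Y allele stood at -2.67 in HK10 A and -2.71 in HK10 B, with -2.53 in HK12 A and -2.47 in HK12 B, which is 0.153 to 0.181 of the heterozygous signal. The mean was 0.66 ± 0.03 for S and -2.59 ± 0.12 for Y (SD, n = 4 isolates). The signal of the lost allele did not reach 0, and the retained allele gained less than a doubling, on a ratio scale whose background correction is not given in the sources used here.

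The levels were also taken over SNPs that the tracts share. Over the last 73.8 kb, from 1441463 to 1515286, where all 4 HK isolates were homozygous, S averaged 0.69 ± 0.03 and Y -2.54 ± 0.13 (SD, n = 4). Over the same SNPs the medians of the 6 zygotes lay between -0.022 and 0.043 for S and between -0.035 and -0.0064 for Y. In bins of 100 kb with at least 20 SNPs, S stayed between 0.62 and 0.75 and Y between -2.90 and -2.29 along the tracts of all 4. Over the 711.9 kb where HK10 B was heterozygous, its S allele stood at 0.00055 and its Y allele at -0.013, against 0.68 and -2.68 in HK10 A. These SNPs of HK10 B, and those of the zygotes above, belong to the set whose median defines 0. Their nearness to 0 is therefore partly built in.

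**Figure D3:**
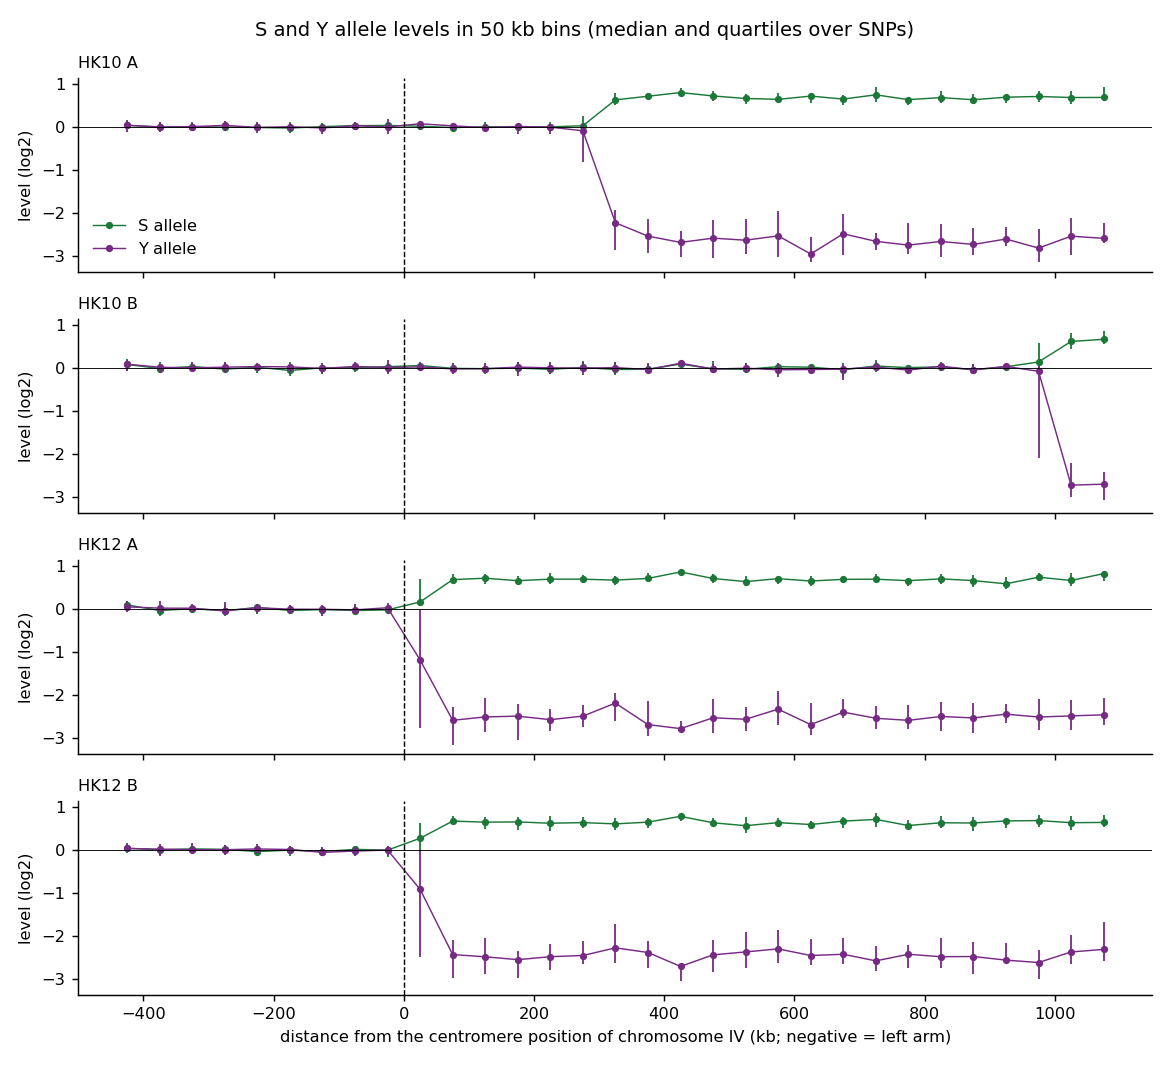
Points are medians and bars quartiles over the SNPs of 50 kb bins, for the S allele (green) and the Y allele (purple) in each HK isolate, as log2 level on the vertical axis against distance from the centromere position (kb). Outside the tracts both alleles lie near 0, which the median of the heterozygous SNPs sets. Inside the tracts S lies between 0.6 and 0.9 in most bins and Y near -2.5. Bins that hold a tract end show intermediate medians or long bars.

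Single SNPs spread widely around these medians, and did so alike in different isolates. Between the 5th and 95th percentile of SNPs in its tract, the Y level ran from -3.61 to -1.63 in HK10 A and from -3.33 to -1.51 in HK12 B. Across the SNPs of the last 73.8 kb, the Y levels of 2 HK isolates correlated with Pearson's r between 0.718 and 0.859 over the 6 pairs of isolates, with 106 to 109 SNPs per pair. The S levels correlated with r between 0.617 and 0.815. All pairs share the probes, and therefore their base composition and the control DNA, so these values describe the probes as well as the isolates.

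Lost alleles more often had no value. In the 711.9 kb where the 2 HK10 isolates differed, 12.7% of Y probes had no value in HK10 A, which was homozygous there, against 5.28% in HK10 B, which was heterozygous. For S probes the shares were 1.55% in HK10 A and 2.61% in HK10 B. The HK12 isolates, also homozygous there, lacked 13.9% and 13.7% of Y probes and 1.93% and 1.74% of S probes. In the zygotes the share for Y probes in this stretch ran from 0.672% to 12.3%, with the high values in the MD893-2 zygotes, so a missing probe is no sign of LOH across arrays.

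Within the S tracts, 25 SNPs had d under 1.5 in at least 1 isolate, and no 2 of them were neighbours on the map. They numbered 3 in HK10 A and 2 in HK10 B, with 13 in HK12 A and 16 in HK12 B, or 0.503%, 1.80%, 1.52% and 1.87% of the tract's measured SNPs. Probe values were missing for 23.9% of probes at these SNPs, against 7.66% of probes over the tracts. The lowest d among them was 0.32, and none lay on the Y side. None of these SNPs therefore marks a heterozygous stretch of 2 or more SNPs inside a tract.

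A few of them stood low in every isolate. At 1457974, d was 0.68 in HK10 A and 0.80 in HK10 B, with 0.32 in HK12 A and 0.63 in HK12 B. At 1450630 it was 1.24 in HK10 A and 1.24 in HK10 B, with 1.49 in HK12 A and 1.19 in HK12 B. At 1075942, beside the widest gap of the map, it was 1.15 in HK10 A, 1.33 in HK12 A and 1.27 in HK12 B. At 978358 both HK12 isolates lay under 1.5, with 1.32 in HK12 B, and HK10 A lay just above at 1.54.

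The other 21 stood under 1.5 in 1 isolate alone. In HK12 A these were the SNPs at 717826, 929842, 1008881, 1217163, 1248300, 1302806, 1330358, 1418518 and 1462846. In HK12 B they were those at 526132, 666637, 668462, 671933, 723117, 961922, 1149549, 1150946, 1254695, 1301076, 1423586 and 1460755. At 7 of the 25 SNPs, no other isolate with a tract there had a value. At 1254695, d was 5.52 in HK12 A and 2.12 in HK10 A but 0.96 in HK12 B, the widest gap between isolates among these SNPs.

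On the left arm, the 2 HK12 isolates shared a short tract homozygous for the Y allele, the opposite allele to that of their terminal tract. It held 6 measured SNPs from 208973 to 212240 and covered 5.54 kb between the midpoints to its neighbours. Its median d was -3.07 in HK12 A and -2.83 in HK12 B, against -0.16 in HK10 A and -0.098 in HK10 B. The medians of the 6 zygotes there ran from -0.14 to 0.016. The S allele stood at -2.32 in HK12 A and -2.22 in HK12 B and the Y allele at 0.70 and 0.69, close in size to the lost and retained levels of the long tracts with the alleles exchanged. This was 0.409% of the chromosome IV SNPs measured in each HK12 isolate, beside 0.427% of SNPs over all chromosomes in a called Y tract in HK12 A and 0.407% in HK12 B. No chromosome IV SNP of HK10 A or HK10 B was in a Y tract, beside 11.9% and 11.8% over all chromosomes.

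The left end of the Y tract lay between 204546 and 208973, an interval of 4427 bp. At 203784, 204066 and 204546, d was -0.17, -0.012 and -0.020 in HK12 A and -0.36, -0.19 and -0.071 in HK12 B. At 208973, 211080 and 211290 it was -3.01, -4.03 and -3.13 in HK12 A and -2.75, -3.90 and -2.74 in HK12 B. The right end was narrower, between 212240 and 212359, or 119 bp. At 211922, 212211 and 212240, d was -3.35, -2.48 and -1.81 in HK12 A and -3.15, -2.92 and -1.80 in HK12 B. At 212359, 212417 and 212468 it was 0.15, 0.23 and 0.023 in HK12 A and -0.0032, -0.12 and -0.11 in HK12 B. The last SNP of the tract had the d nearest to 0 of the 6 in both isolates, though it stayed past -1.5.

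Beyond this tract the 2 HK12 isolates had 8 heterozygous SNPs and then 1 more Y SNP at 215127, 2.887 kb from the last SNP of the tract. Its d was -2.93 in HK12 A and -2.48 in HK12 B, with both probes of each allele measured, against 0.23 in HK10 A and 0.095 in HK10 B. The zygotes had -0.040 to 0.26 there. At the next SNP, 216281, d was -0.018 in HK12 A and -0.041 in HK12 B, so both were heterozygous again. A tract, a heterozygous stretch and a single Y SNP thus followed each other in the same order in both isolates.

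A run of 4 Y SNPs from 57794 to 59544, under the minimum of 5, stood 149.4 kb to the left of the Y tract in the same 2 isolates. Its d at 57794, 57840, 59499 and 59544 was -2.92, -3.13, -3.22 and -2.64 in HK12 A and -2.56, -3.45, -2.73 and -2.30 in HK12 B. The HK10 isolates ranged from -0.16 to 0.25 at these SNPs, with no value for HK10 B at the last. The zygotes ranged from -0.40 to 0.36 at the SNPs other than 59544, where 1 of them reached 1.45. The S allele stood at -2.42 in HK12 A and -2.41 in HK12 B, and the Y allele at 0.61 and 0.42. The next SNP of the map, 59550, lies 6 bp beyond the run and had no Y value in HK12 A, HK12 B or HK10 B, so it has no d there and could not be counted. Its S allele stood at -2.66 in HK12 A and -2.19 in HK12 B, against -0.27 in HK10 A and -0.37 in HK10 B, and from -0.35 to -0.084 in the zygotes. The run as called covered 2.38 kb, with heterozygous SNPs at 57146 and 60159 in both isolates. No other isolate held 2 or more consecutive SNPs past 1.5 outside a tract.

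**Figure D4:**
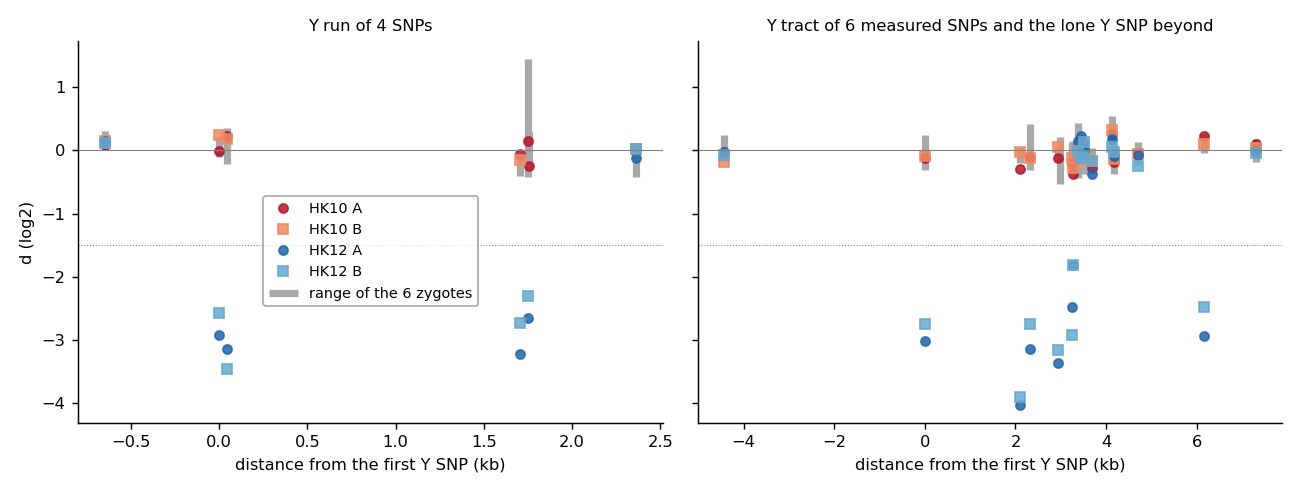
The vertical axis is d (log2) and the horizontal axis the distance from the first Y SNP (kb), for the run of 4 Y SNPs (left) and for the Y tract with the lone Y SNP beyond it (right). Points are the 4 HK isolates, grey bars the range of the 6 zygotes and the dotted line d of -1.5; in both panels HK12 A and HK12 B drop together to between -1.8 and -4.0 while HK10 A and HK10 B stay near 0.

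Single SNPs past 1.5 in the heterozygous state numbered 0 in HK10 A and 0 in HK10 B, with 2 in HK12 A and 1 in HK12 B. These were 0%, 0%, 0.333% and 0.166% of the heterozygous SNPs of chromosome IV. Over all chromosomes of the same isolates the shares were 0.0752%, 0.179%, 0.205% and 0.116%. Apart from the SNP at 215127, the only one was at 436147 in HK12 A, with d of -1.57 from a single S probe. The MD893-1 zygotes had 0, 0, 0 and 2 such SNPs, or 0%, 0%, 0% and 0.131%, beside 0.0225%, 0.0225%, 0.0382% and 0.0691% over all chromosomes. The MD893-2 zygotes had 4 and 8, or 0.278% and 0.547%, beside 0.406% and 0.515% over all chromosomes. None of these zygote SNPs was shared by 2 zygotes.

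The 5 SNPs with the largest mean d over the zygotes in either direction all leaned to the Y side. They were 386101 (mean d -0.85), 777375 (-0.79), 46079 (-0.78), 1150946 (-0.73) and 232765 (-0.70). At 46079 the lean was common to every isolate, with d from -0.73 to -0.55 in the HK isolates and from -1.08 to -0.57 in the 6 zygotes. At 386101 it came from 1 zygote at -3.44, the others being no lower than -0.33.

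On the heterozygous left arm the summed signal of both alleles was tested. The chromosome was chosen by d and not by this sum, but the sum uses the same probe values as d. Its SNPs and its zero come from the heterozygous calls on d, and the measure was chosen with earlier results of these data known. The p-values of these tests carry those limits. The first measure was s, the mean log2 ratio of both alleles, with 0 at the array's median over heterozygous SNPs of all chromosomes. Its median over the left arm was -0.157 in HK10 A and -0.142 in HK10 B, with -0.144 in HK12 A and -0.151 in HK12 B, against 0.0057 to 0.0179 in the zygotes. All 4 HK isolates lay below all 6 zygotes. The mean was -0.148 ± 0.0068 in HK isolates and 0.0091 ± 0.0050 in zygotes (SD, n = 4 and 6). The difference of -0.157 had p = 0.00952 in an exact two-sided permutation test over 210 splits, the smallest p they can give, and 0.0286 after adjustment over 3 left arm measures, the spread of d given last included.

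The test of s above counted A and B of an HK name as separate isolates, though HK12 A and HK12 B shared every called tract end on chromosome IV. With 1 value per HK name, which allows no p below 0.0714, the difference in s had adjusted p = 0.0714 in the exact permutation test. It was -0.156 against the MD893-1 zygotes alone and -0.160 against the MD893-2 zygotes alone, where adjusted p was 0.0857 and 0.133. The right arm SNPs nearest the centromere, from 449808 to 456380, were heterozygous in all 10 isolates. Over the 11 to 13 of them measured per isolate, median s lay between -0.183 and -0.136 in the HK isolates and between 0.040 and 0.134 in the zygotes, and was not tested. Over all heterozygous right arm SNPs, median s was -0.167 in HK10 A (287 SNPs) and -0.159 in HK10 B (795 SNPs). The zygotes lay between -0.00072 and 0.0144 there, so the low s was not particular to the left arm. This was not tested either. On a linear scale, after each array was centred on its median, the 2 alleles averaged 0.894 to 0.901 in the HK isolates and 1.01 in the zygotes. These are medians over heterozygous left arm SNPs. They are relative to the array's own median ratio and are not shares of the control signal. The share of left arm probes without a value ran from 3.16% to 8.98% in HK isolates and from 0.633% to 13.3% in zygotes over S and Y probes, and its part in the result was not tested.

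The second measure was the slope of s along the left arm, per 100 kb towards the centromere. It was -0.0044 in HK10 A and -0.0134 in HK10 B, with -0.0166 in HK12 A and -0.0154 in HK12 B, against -0.0073 to 0.0039 in the zygotes, so that 3 of 4 HK isolates lay below all zygotes. The means were -0.0125 ± 0.0055 in HK isolates and -0.0017 ± 0.0050 in zygotes (SD, n = 4 and 6), a difference of -0.0108 with exact permutation p = 0.0286 and adjusted p = 0.0429. This call did not hold on reverse-strand probes alone, where the difference was -0.0051 and the exact permutation test gave adjusted p = 0.295. It also missed the threshold without the first 50 kb of the map, at -0.0089 with an adjusted exact permutation p of 0.0714. With 1 value per HK name the exact permutation test gave adjusted p = 0.0714, and the call was lost on leaving out 1 isolate in 7 of 10 cases.

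The third measure was the spread of d over heterozygous left arm SNPs, as a robust SD. It was 0.135 in HK10 A and 0.180 in HK10 B, with 0.166 in HK12 A and 0.147 in HK12 B, and ran from 0.161 to 0.294 in the zygotes. The groups overlapped. The means were 0.157 ± 0.020 in HK isolates and 0.197 ± 0.051 in zygotes (SD, n = 4 and 6). Since d also chose the chromosome and called the heterozygous SNPs, this measure is given as a description with no test.

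**Figure D5:**
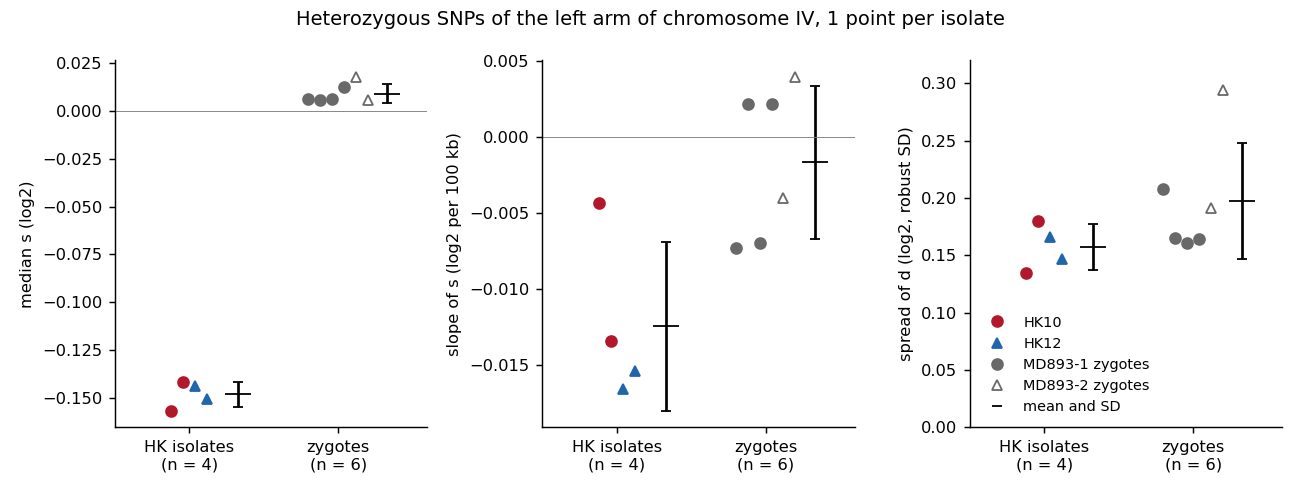
Each point is 1 isolate, with HK isolates left of zygotes; the panels show the median of s (log2), its slope (log2 per 100 kb) and the spread of d (log2, robust SD), and bars give the mean and SD. The HK isolates lie between -0.157 and -0.142 in the first panel, apart from the zygotes, and overlap the zygotes in the other panels.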

How the data were processed

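Per the file headers and labels, the authors deposited 1 table of linear ratios of sample (Cy5) to control (Cy3) per probe, 1 column per array, from GenePix scans. The sources used here do not give background correction, probe filters or genome build. Log2 ratios were shifted so that every array had a median of 0, and no intensity-dependent normalization was applied. The values d and s were computed for all 13461 SNPs of 16 chromosomes and d was centred on the array's median. The hidden Markov model used Student t emissions with 4 degrees of freedom, a scale of 0.8 for homozygous states, noise of at least 0.1 for the heterozygous state, a state change of 0.0001 per SNP and tract ends midway to the next measured SNP. It was tested on simulated data. Only s and its slope on the left arm are given with exact permutation tests. Their Benjamini-Hochberg adjustment also counts the planned test of the spread of d, which is given as a description because d called the states. No pair of arrays held identical values. The number of arrays limits the precision.

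The source strain in the labels reads MD891 or MD892 where titles read MD893-1 or MD893-2; grouping follows the titles. Nothing in the labels says that A and B of an HK name come from separate cultures, so p-values over isolates partly reflect how alike A and B are. The members and the measures were chosen with earlier results of these data known. The SNPs named were the 3 on each side of every tract end, every SNP in a tract nearer to heterozygous, every run of 2 or more SNPs past 1.5 outside tracts and the 5 with the largest mean d in zygotes; others named were chosen after their values were seen. Alternatives changed the model's settings, the probes, the zero, the SNPs and the isolates. Python 3.11.15, numpy 2.4.6, pandas 2.3.3, SciPy 1.17.1 and matplotlib 3.10.9 were used.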

Additional observations from a re-analysis of the deposited data

Results flagged for a closer look

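Dixon's test on groups of 4 to 10 isolates marked 4 of the chromosome IV values as far from the rest of their group, among 27 groups checked, and chance marks about 1 group in 20. The median s of the left arm was 0.0126 in MD893-1 zygote 4, against 0.0057 to 0.0066 in the other 3 MD893-1 zygotes. The spread of d on the left arm was 0.294 in MD893-2 zygote 2, against 0.161 to 0.208 in the other 5 zygotes. The same spread was 0.208 in MD893-1 zygote 1, against 0.161 to 0.165 in the other 3 of that cross. MD893-1 zygote 4 had 2 single SNPs past 1.5, where the other 3 MD893-1 zygotes had 0; with 3 values tied at 0 any other count is marked, so this mark carries no weight.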

How the results depend on the processing

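Of 231 values recomputed under the alternatives other than leaving out an isolate, 194 kept their direction and size or side of the threshold. Another 28 moved, and 9 missed the threshold, all of them for s or its slope. None changed sign, which positions, percents and counts of tracts cannot do. With a minimum of 10 SNPs the HK12 Y tract was not called, so its ends under that setting are not among the 231. The 194 include values for the spread of d, which is given as a description. The number of tracts under 50 kb in each HK12 isolate was 2 with a minimum of 3 SNPs and 0 with a minimum of 10, by construction of the minimum. With plain runs of SNPs in place of the model it was 8 in each, 1 in HK10 A and 2 in HK10 B, and the percent of the chromosome in LOH was 49.6 in HK10 A, 66.4 in HK12 A and 67.0 in HK12 B. The first S SNP of both HK12 isolates was 469765 on reverse-strand probes, since the reverse Y probe at 458195 had no value. That of HK10 B was 1438183 on forward-strand probes, and the last SNP of the HK12 Y tract was 212211 on reverse-strand probes. With the zero taken from all chromosomes, the retained level was 0.52 in HK10 A and 0.49 in HK10 B, with 0.54 in HK12 A and 0.49 in HK12 B, and the lost level -2.84, -2.87, -2.69 and -2.62. The retained level on forward-strand probes was 0.70 in HK10 B, with 0.72 in HK12 A and 0.67 in HK12 B, and on reverse-strand probes 0.70 in HK10 B. The difference in s missed the threshold with 1 value per HK name (-0.157), with MD893-1 zygotes alone (-0.156) and with MD893-2 zygotes alone (-0.160). The difference in slope missed it there too (-0.0108, -0.0100 and -0.0124), on reverse-strand probes (-0.0051), without the first 50 kb (-0.0089) and on SNPs measured on all arrays (-0.0083). Leaving out 1 isolate at a time gave -0.160 to -0.155 for s, which missed the threshold without HK12 A, HK12 B or HK10 B (adjusted p = 0.0714 each, exact permutation tests). It gave -0.0135 to -0.0094 for the slope, with adjusted p between 0.0357 and 0.107 in exact permutation tests, past the threshold in 3 of 10. The slope call was lost without HK10 B, HK12 A, HK12 B, MD893-1 zygote 2, MD893-1 zygote 4, MD893-2 zygote 1 or MD893-2 zygote 2. For the spread of d it gave -0.0481 to -0.0210. The cause was not tested, beyond the fewer isolates or SNPs that an alternative leaves. No paired analysis was possible because the HK isolates carry letters and the zygotes numbers, and the numbers shared by the 2 crosses join no groups that were compared.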
